A study of Homo sapiens with 51 samples.

Results

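The genes described here are 8 transcription factor genes known from the lateral plate mesoderm, the heart and the extraembryonic mesoderm and amnion: HAND1, HAND2, ISL1, TBX2, TBX3, TBX4, TBX20 and NKX2-5. They were chosen by name, with earlier results of these data known, from the symbols matched to the Ensembl identifiers of the count table. They are 8 of 58051 gene rows, and all 8 were among the 19603 genes that passed the filter on low counts. The cells were H1, the single human embryonic stem cell line of the study, sampled untreated (0 h, mTeSR1 medium) and after 1, 6, 12, 24, 36, 48, 72 or 96 h in 1 of 2 conditions. The Activin+BMP4 condition held Activin A at 100 ng/mL and BMP4 at 10 ng/mL, and the BMP4 condition held BMP4 at 50 ng/mL with no Activin A. All treated cultures shared a TeSR E5 medium to which insulin, LY29004 (the labels' spelling) and FGF2 were added, so every treated group differs from the untreated one in medium as well as in ligands, and the 2 conditions differ both in Activin A and in the dose of BMP4. Each of the 17 groups had 3 libraries of total RNA, 51 in all.

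HAND1 and HAND2 encode basic helix-loop-helix factors, which bind DNA in pairs with ubiquitous partners such as TCF3, TCF4 and TCF12 or with TWIST1. ISL1 encodes a LIM homeodomain factor that works in complexes with LDB cofactors and marks progenitors of the second heart field, motor neurons and the amnion. TBX2, TBX3, TBX4 and TBX20 are T-box genes: TBX2 and TBX3 encode closely related repressors, TBX4 is known from the hindlimb, the allantois and the lung mesenchyme, and TBX20 from the heart. NKX2-5 encodes an NK2 homeodomain factor of early cardiac progenitors. BMP signalling through SMAD1, SMAD5 and SMAD9 induces many of these genes in the embryo, while Activin acts through SMAD2 and SMAD3.

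In the GENCODE 29 annotation of GRCh38 the members lie on 5 chromosomes. HAND1 is at chr5:154474972-154478264 on the minus strand, ISL1 at chr5:51383391-51394738 on the plus strand and NKX2-5 at chr5:173232109-173235357 on the minus strand. HAND2 is at chr4:173524969-173530229 on the minus strand, TBX3 at chr12:114670254-114684164 on the minus strand and TBX20 at chr7:35202430-35254147 on the minus strand. TBX2 (chr17:61399896-61409466) and TBX4 (chr17:61452404-61485110) are neighbours on the plus strand with 42.9 kb between them. HAND2 overlaps the antisense gene HAND2-AS1 over 2.96 kb, and TBX2 lies within the antisense gene TBX2-AS1 over 9.57 kb. Whether the counting used strand is not given in the sources used here. Reads from the stretches where the genes of a pair overlap may therefore not be told apart.

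The RefSeq promoter table (GRCh38.p14) held 5 of the 8 members: HAND1, HAND2, ISL1, TBX4 and TBX20. The sequences below show the bases from 250 to 61 before the RefSeq start, so that the window ends before the transcript, for HAND1, HAND2 and ISL1, which were called higher in BMP4 at 96 h, and for TBX20, which was higher by less than 2-fold. TBX4, also called higher at 96 h, is not printed because its window lies within the GENCODE gene. Capitals mark GATAA on either strand (TTATC on the other), letters found in many sites of GATA factors.
HAND1, chr5:154478288-154478477 minus strand: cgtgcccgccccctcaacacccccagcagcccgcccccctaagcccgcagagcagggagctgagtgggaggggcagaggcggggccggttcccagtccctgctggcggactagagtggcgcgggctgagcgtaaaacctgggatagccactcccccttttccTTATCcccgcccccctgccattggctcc
HAND2, chr4:173530290-173530479 minus strand: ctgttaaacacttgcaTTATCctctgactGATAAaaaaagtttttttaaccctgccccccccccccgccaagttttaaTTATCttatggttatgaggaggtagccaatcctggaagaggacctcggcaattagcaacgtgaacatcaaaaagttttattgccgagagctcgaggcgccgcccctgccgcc
ISL1, chr5:51383198-51383387 plus strand: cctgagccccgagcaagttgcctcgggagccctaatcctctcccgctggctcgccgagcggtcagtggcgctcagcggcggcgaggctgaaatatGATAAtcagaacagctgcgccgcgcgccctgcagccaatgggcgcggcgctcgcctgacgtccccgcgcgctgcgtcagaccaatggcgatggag
TBX20, chr7:35254161-35254350 minus strand: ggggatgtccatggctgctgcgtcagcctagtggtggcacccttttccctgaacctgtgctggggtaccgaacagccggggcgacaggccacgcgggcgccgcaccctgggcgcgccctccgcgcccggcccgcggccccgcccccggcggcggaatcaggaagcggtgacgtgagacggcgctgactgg
HAND1 has 1 such match, 88 bases before the start. HAND2 has 3, at 234, 221 and 172 bases, and ISL1 has 1, at 155 bases. TBX20 and TBX4 have 0 matches of GATAA and 0 of CCAAT in this window. GATAA was found in 16.8% of the 34943 windows of the same length in the table. CCAAT on either strand was found once in HAND1, once in HAND2 and at 121 and 75 bases in ISL1, against 25.8% of all windows. The GC content was 70.0% for HAND1, 47.9% for HAND2, 68.4% for ISL1 and 74.2% for TBX20, and the median over all windows was 56.8%. These matches describe letters only.

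Library totals ran from 22.8 M to 30.4 M counts. Levels are in CPM (counts scaled to a common library total, with TMM factors), as mean ± SD of 3 libraries. A gene is called changed where edgeR's quasi-likelihood test over all 51 libraries gave a fold change of at least 2 with an adjusted p (Benjamini-Hochberg) under 0.05, and errors of log2 fold changes are SE. The labels number repeats without naming separate cultures, so the p-values measure the spread between these libraries, which may be technical. A library of Activin+BMP4 at 48 h (replicate 2), one of Activin+BMP4 at 96 h (replicate 3) and one of BMP4 at 12 h (replicate 1) stood apart from the other libraries of their groups. Where they are used, log2 values printed for members' called differences between the conditions are also given without these 3. So are the called changes from 48 to 96 h and the differences between those changes. Values against untreated cells are not given without them. In these bulk samples, fewer cells of a type and less RNA per cell cannot be told apart.

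More members differed between the conditions at 72 and 96 h than at any earlier time, nearly all of them higher in BMP4. Of the 8, BMP4 was higher than Activin+BMP4 for 0 at 1 h, where 0% of all genes tested were higher. That 0 also held for members with an unadjusted p under 0.05 and for members called by DESeq2. At 6 h 2 were higher (HAND1 and TBX3), against 0.194% of all genes. The count was 1 at 12 h (HAND1; background 0.678%), 2 at 24 h (HAND1 and TBX3; 2.44%) and 3 at 36 h (HAND1, TBX3 and ISL1; 3.09%). At 48 h 2 were higher (HAND1 and ISL1; 4.98%) and 1 was lower (NKX2-5; 4.46%). At 72 h 6 were higher (5.2%) and TBX20 was lower (4.77%), with TBX4 not called. At 96 h 7 were higher (7.7%) and 0 lower (8.1%), with TBX20 not called. TBX2 and TBX4 passed the filter on low counts only through the BMP4 libraries at 96 h. Calls of these genes that use those libraries are therefore not independent of the filter. Both genes count among the 7 and in the median at 96 h. The members' median log2 difference was 2.12 at 72 h and 5.71 at 96 h, where the median over all genes tested was 0 and 0.01.

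**Figure D1:**
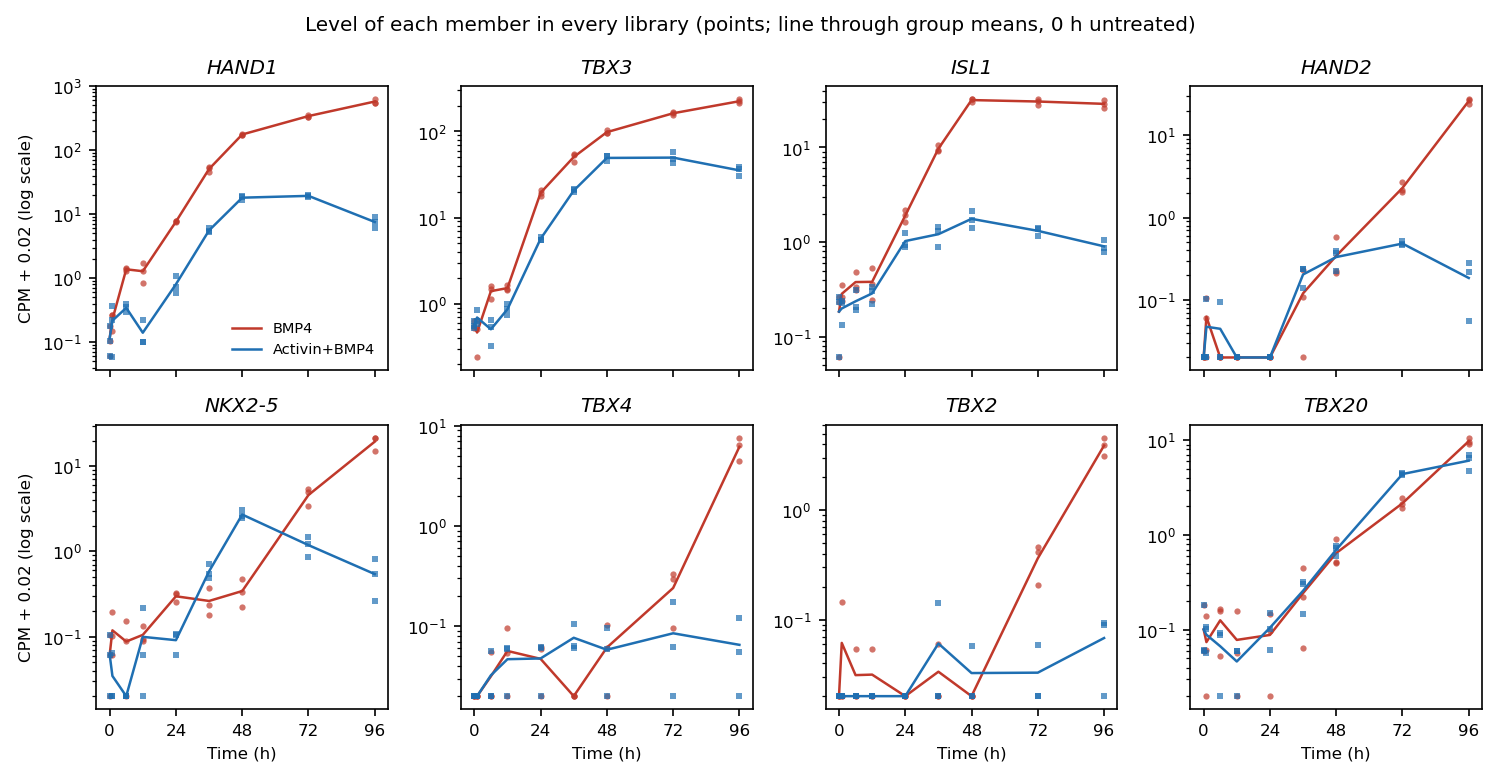
Level of each of the 8 genes in every library (points, CPM plus 0.02 on a log axis) against time in hours, with lines through the group means, BMP4 in red circles and Activin+BMP4 in blue squares; the untreated libraries stand at 0 h in both. HAND1, TBX3 and ISL1 separate by 36 h, HAND2, TBX4 and TBX2 only at 72 or 96 h, and NKX2-5 crosses between 48 and 72 h. TBX20 is lower in BMP4 at 72 h and higher there at 96 h, the latter by under 2-fold.

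HAND1 differed between the conditions from 6 h on and was the member with the highest level per kb of exon in BMP4 at 96 h. The untreated libraries held 0.0402, 0.161 and 0.0839 CPM, 7 counts in all. At 6 h the BMP4 libraries held 1.43, 1.28 and 1.35 CPM and the Activin+BMP4 libraries 0.332, 0.271 and 0.368. The groups did not overlap, and BMP4 was 4.19-fold higher (log2 fold change 2.06 ± 0.32, adjusted p = 9.01e-06). At 24 h the BMP4 mean was 7.62 ± 0.177 CPM against 0.783 ± 0.256, and at 48 h it was 176 ± 3.80 against 18.1 ± 1.17. The BMP4 over Activin+BMP4 difference of HAND1 on the log2 scale was 3.33 ± 0.42 (12 h), 3.27 ± 0.19 (24 h), 3.19 ± 0.10 (36 h) and 3.28 ± 0.09 (48 h; 3.23 without the 3 libraries that stood apart). It was 4.14 ± 0.09 after 72 h and 6.25 ± 0.10 after 96 h. All 6 of these were called, and the 12 h value was 3.57 without those 3.

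At 96 h the BMP4 libraries held 548.9, 632.8 and 546.9 CPM of HAND1 and the Activin+BMP4 libraries 7.45, 9.17 and 5.99. All 3 BMP4 libraries lay far above all 3 Activin+BMP4 libraries, a 76.5-fold difference (adjusted p = 1.8e-39; log2 fold change 6.11 without the 3 libraries that stood apart). The Activin+BMP4 level was highest at 72 h (19.3 ± 0.657 CPM), where it overlapped the 48 h level, and was 39.0% of that at 96 h. HAND1 was called higher than untreated in Activin+BMP4 from 24 h on and also at 6 h (adjusted p = 0.0257, from 27 counts against 7), but not at 12 h. The 6 h call was lost with no filter on low counts (adjusted p = 0.0564), and without untreated replicate 1 or 3 or Activin+BMP4 replicate 1 or 3.

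HAND2, its paralogue with roles in the heart and limb, had 0 counts in the untreated libraries and differed between the conditions only from 72 h on. At 48 h the BMP4 libraries held 0.194, 0.57 and 0.207 CPM and the Activin+BMP4 libraries 0.354, 0.208 and 0.375, 24 counts in each group. These overlapped (log2 difference 0.03 ± 0.54, adjusted p = 0.975). At 72 h BMP4 held 2.12, 2.06 and 2.66 CPM against 0.442, 0.453 and 0.499, and the groups no longer overlapped (4.91-fold, log2 2.27 ± 0.31, adjusted p = 9.38e-08). At 96 h it held 24.1, 27.8 and 26.7 CPM against 0.259, 0.201 and 0.0348.

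That last difference for HAND2 was 159-fold (log2 7.28 ± 0.23, adjusted p = 1.1e-27; 6.81 without the 3 libraries that stood apart). Against untreated cells, where 3 counts over the group set the floor, BMP4 at 96 h was at least 644-fold higher. Activin+BMP4 was first called at 36 h, at least 4.49-fold higher than that floor, and its highest level was 0.465 ± 0.0297 CPM at 72 h. The antisense gene HAND2-AS1 was at 3.29 ± 0.598 CPM in BMP4 at 96 h and at 0.0460 ± 0.0533 in Activin+BMP4 (4 counts), with 0 counts in untreated cells. It was called higher in BMP4 at 96 h (log2 6.01 ± 0.42, adjusted p = 8.94e-17). HAND2-AS1 passed the filter on low counts only through BMP4 libraries, so this p-value is not independent of the filter.

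ISL1 was higher in BMP4 from 36 h on, and its BMP4 level at 96 h was close to that at 48 h. The untreated libraries held 0.0402, 0.241 and 0.210 CPM. At 24 h the BMP4 libraries held 1.90, 1.61 and 2.15 CPM and the Activin+BMP4 libraries 0.904, 0.876 and 1.23. Both were called higher than untreated at that time, with log2 changes of 3.5 ± 0.33 in BMP4 (adjusted p = 8.1e-12) and 2.58 ± 0.38 in Activin+BMP4 (adjusted p = 4.22e-07). The difference between the conditions was 0.92 ± 0.22 (adjusted p = 0.00112), just under 2-fold, and was called without Activin+BMP4 replicate 3 or BMP4 replicate 2.

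At 36 h ISL1 was 8.14-fold higher in BMP4, 9.68 ± 0.736 against 1.19 ± 0.290 CPM (log2 3.02 ± 0.15, adjusted p = 3.44e-20). In BMP4 it was then 31.7 ± 1.31 CPM at 48 h, 30.6 ± 2.18 at 72 h and 28.9 ± 3.15 at 96 h. The 96 and 48 h libraries overlapped, and the change between these times was -0.13 ± 0.08 on the log2 scale (adjusted p = 0.151). In Activin+BMP4 the highest mean was 1.74 ± 0.369 CPM at 48 h, and 0.880 ± 0.141 remained at 96 h. At 96 h the BMP4 libraries held 25.8, 32.1 and 28.7 CPM against 1.04, 0.837 and 0.766, with no overlap (32.8-fold, log2 5.04 ± 0.13, adjusted p = 2.3e-31; 4.95 without the 3 libraries that stood apart). ISL1-DT, the divergent noncoding gene beside ISL1, was 3.37 ± 0.506 CPM in BMP4 and 0.0838 ± 0.0587 in Activin+BMP4 at 96 h (log2 5.29 ± 0.32, adjusted p = 2.25e-21). Like ISL1 itself, it was first called higher in BMP4 at 36 h. ISL1-DT passed the filter on low counts only through BMP4 libraries, so these calls are not independent of the filter.

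TBX3 was at 0.0913 ± 0.00894 CPM per kb of exon in untreated cells and HAND1 at 0.0546 ± 0.0351, with ranges of mean ± SD that overlap. The untreated libraries held 0.522, 0.603 and 0.503 CPM. At 6 h the BMP4 libraries held 1.57, 1.10 and 1.46 CPM and the Activin+BMP4 libraries 0.627, 0.305 and 0.516. The groups did not overlap, and BMP4 was 2.85-fold higher (log2 1.52 ± 0.30, adjusted p = 0.000576). TBX3 in Activin+BMP4 was first called higher than untreated at 24 h, at 5.64 ± 0.301 CPM, when BMP4 was at 19.4 ± 1.75.

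Both conditions then held high TBX3 levels. BMP4 was 98.3 ± 4.39 CPM and Activin+BMP4 49.3 ± 3.87 at 48 h, a log2 difference of 0.99 ± 0.08 (adjusted p = 1.15e-13) that misses the 2-fold threshold. The difference passes that threshold without scaling factors (1.01) and misses it without the 3 libraries that stood apart (0.93). At 96 h the BMP4 libraries held 223.9, 239.0 and 211.8 CPM and the Activin+BMP4 libraries 38.5, 37.1 and 30.3. The groups did not overlap, and BMP4 was 6.37-fold higher (log2 2.67 ± 0.08, adjusted p = 2.74e-28; 2.57 without the 3 libraries that stood apart). This was a smaller ratio than that of HAND1, HAND2, ISL1, NKX2-5, TBX2 or TBX4 at this time, and those differences between genes were not tested.

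TBX2 and TBX4, the neighbouring pair on chromosome 17, had 0 counts in untreated cells and stayed at 0 to 4 counts over every group through 48 h. For TBX2 at 72 h the BMP4 libraries held 0.445, 0.187 and 0.397 CPM and the Activin+BMP4 libraries 0, 0 and 0.0383. This is 28 counts against 1, a ratio of 25.2 with a 95% exact interval of 4.16 to 1030 that covers counting error only (adjusted p = 0.00125). At 96 h BMP4 held 3.11, 4.58 and 3.93 CPM against 0.0741, 0 and 0.0696, which is 328 counts against 4.

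The TBX2 groups did not overlap at 96 h, and BMP4 was 80.9-fold higher (log2 6.24 ± 0.43, adjusted p = 1.62e-16; 6.60 without the 3 libraries that stood apart). DESeq2 did not call TBX2 at 72 h (adjusted p = 0.353) or at 96 h (adjusted p = 0.119), with log2 differences of 4.54 and 6.34. TBX2 passed the filter on low counts only through the BMP4 libraries at 96 h, so its p-values there are not independent of the filter. Against untreated cells BMP4 at 96 h was at least 95.5-fold higher. TBX2-AS1, which covers TBX2 on the other strand, did not pass the filter and was 0.307 ± 0.0793 CPM in BMP4 at 96 h.

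TBX4 at 72 h stood at 0.308, 0.0748 and 0.278 CPM in BMP4 and at 0, 0.0412 and 0.153 in Activin+BMP4. These overlapped and were not called (log2 1.63 ± 0.78, adjusted p = 0.0913), though they were called without BMP4 replicate 2 (2.03) or Activin+BMP4 replicate 3 (3.11). At 96 h BMP4 held 6.46, 7.61 and 4.42 CPM of TBX4 against 0, 0.1004 and 0.0348, 514 counts against 4. This was a 137-fold difference with no overlap (log2 6.89 ± 0.35, adjusted p = 3.78e-26; 6.73 without the 3 libraries that stood apart). TBX4 passed the filter on low counts only through these BMP4 libraries, so its p-value at 96 h is not independent of the filter. Against untreated cells BMP4 at 96 h was at least 150-fold higher. Neither TBX2 nor TBX4 was called higher than untreated at any time in Activin+BMP4.

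NKX2-5 was called higher in Activin+BMP4 at 48 h and higher in BMP4 at 72 and 96 h. The untreated libraries held 3 counts in all. At 24 h the BMP4 mean was 0.278 ± 0.0375 CPM against 0.0708 ± 0.0259, with no overlap but no call (log2 1.90 ± 0.86, adjusted p = 0.0938). At 48 h the Activin+BMP4 libraries held 3.03, 2.45 and 2.59 CPM and the BMP4 libraries 0.310, 0.204 and 0.455. The groups did not overlap, and Activin+BMP4 was 8.33-fold higher (log2 for BMP4 over Activin+BMP4 -3.04 ± 0.35, adjusted p = 3.2e-10; -3.10 without the 3 libraries that stood apart). At 36 h the difference was below 0 and not called (-1.22 ± 0.55, adjusted p = 0.0987) but was called by DESeq2 and by a fit to the groups compared alone (adjusted p = 0.0428 in each).

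At 72 h BMP4 held 3.36, 4.94 and 5.44 CPM of NKX2-5 against 1.46, 1.195 and 0.844, now 3.93-fold higher in BMP4 (log2 1.97 ± 0.23, adjusted p = 7.01e-10). At 96 h it held 21.6, 21.7 and 14.97 CPM against 0.519, 0.803 and 0.244. No libraries of the 2 conditions overlapped at either time, and the 96 h ratio was 37.2 (log2 5.19 ± 0.20, adjusted p = 3.54e-27; 4.85 without the 3 libraries that stood apart). Against untreated cells the ratio of counts was 66.1 for Activin+BMP4 at 48 h (95% exact interval 22.3 to 323) and 472 for BMP4 at 96 h (161 to 2290). The early BMP4 calls of NKX2-5 at 24 and 36 h rest on 20 and 17 counts against 3. Each was lost without untreated replicate 1 or 2 or BMP4 replicate 1 or 2 of that time, and the 36 h call also with no filter on low counts (adjusted p = 0.0907).

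TBX20 was the only member not called between the conditions at 96 h. The untreated libraries held 6 counts in all. At 48 h the Activin+BMP4 libraries held 0.708, 0.582 and 0.751 CPM and the BMP4 libraries 0.892, 0.489 and 0.496, which overlapped (log2 -0.12 ± 0.35, adjusted p = 0.824). Both were called higher than untreated at that time, with log2 changes of 2.88 ± 0.58 in BMP4 (adjusted p = 3.01e-05) and 2.99 ± 0.56 in Activin+BMP4 (adjusted p = 9.3e-06).

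At 72 h Activin+BMP4 held 4.38, 4.49 and 4.26 CPM of TBX20 and BMP4 2.09, 2.43 and 1.91. The groups did not overlap, and BMP4 was lower (log2 -1.03 ± 0.17, adjusted p = 1.85e-06), a call that falls under 2-fold without BMP4 replicate 3 (-0.95). At 96 h the order was the reverse, 8.99, 10.6 and 9.60 CPM in BMP4 and 6.97, 6.46 and 4.77 in Activin+BMP4. The log2 difference of 0.69 ± 0.12 (adjusted p = 2.09e-06; 0.54 without the 3 libraries that stood apart) had no overlap and stayed under 2-fold.

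**Figure D2:**
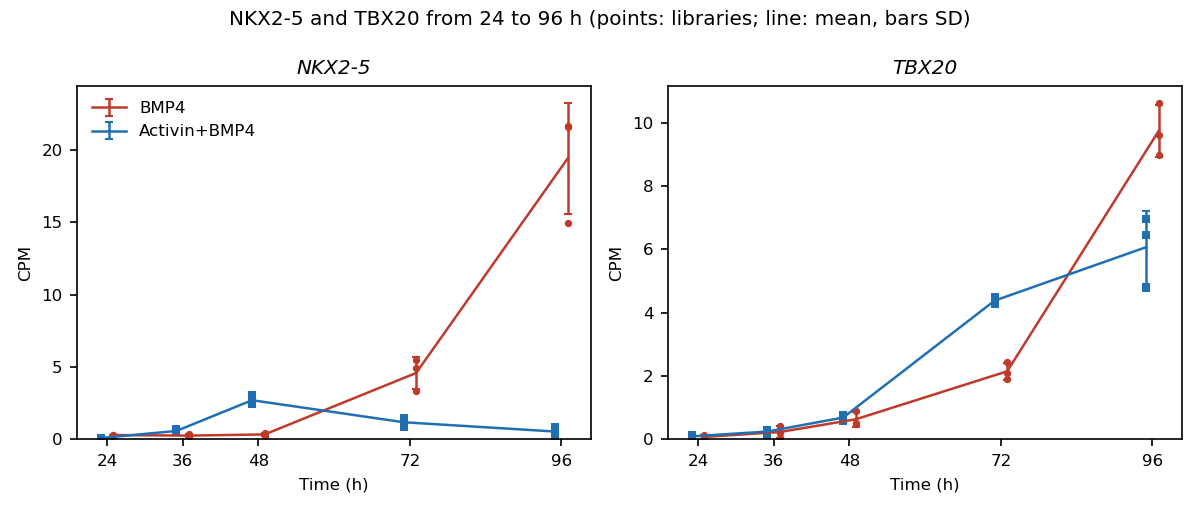
NKX2-5 and TBX20 from 24 to 96 h in CPM on linear axes from 0, with points for libraries, lines through group means and bars of 1 SD (n = 3), drawn 1 h to each side of the time. NKX2-5 is 2.69 CPM in Activin+BMP4 and 0.323 in BMP4 at 48 h and 0.522 and 19.4 at 96 h; TBX20 is 4.38 and 2.14 at 72 h and 6.07 and 9.74 at 96 h.

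**Figure D3:**
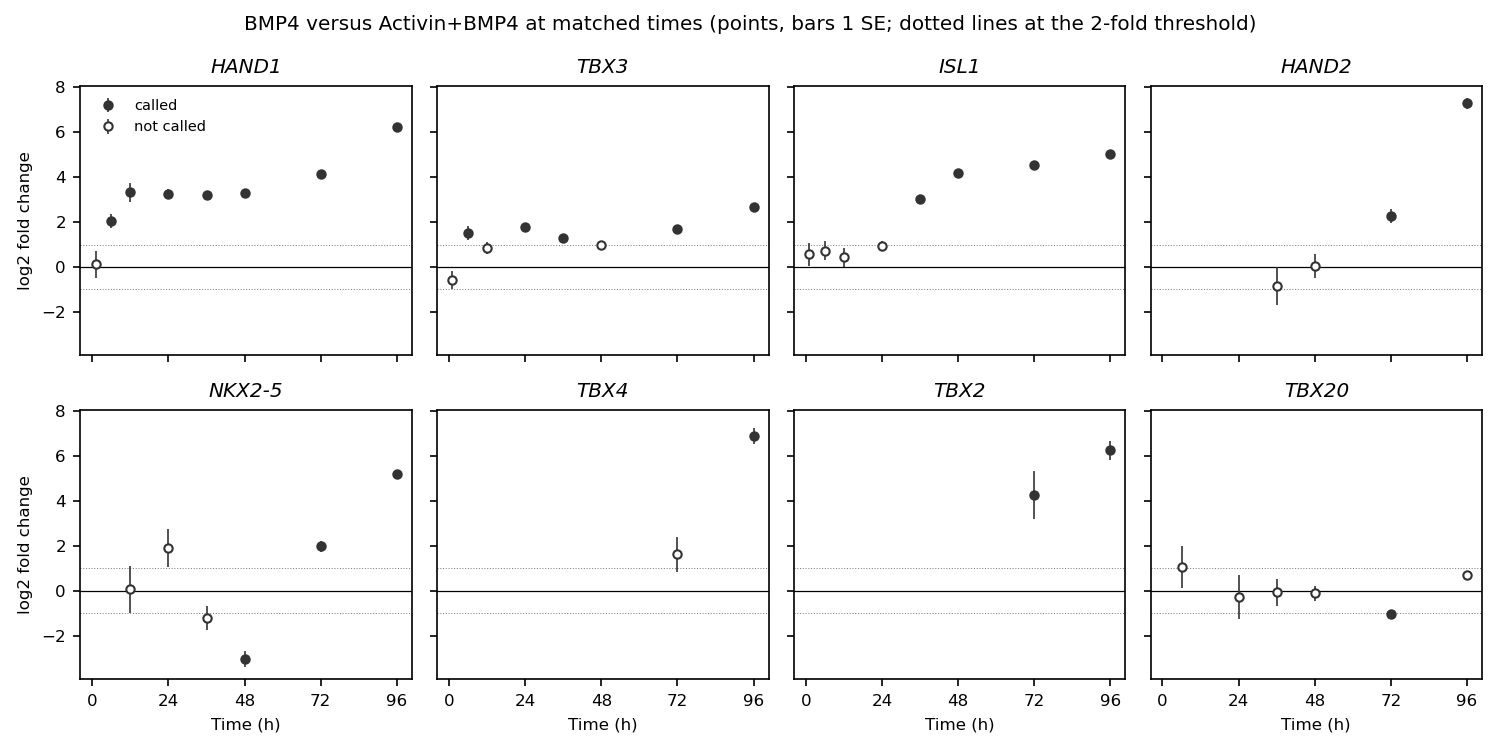
Log2 fold change of BMP4 over Activin+BMP4 at each time for the 8 genes (points, bars 1 SE), filled where called and open where not, with dotted lines at 2-fold; times with under 10 counts over both groups are left out. HAND1 is called from 6 h and ISL1 from 36 h on, NKX2-5 is below 0 at 48 h and above it from 72 h, and TBX20 is called only at 72 h, below 0.

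Each condition was also set against the untreated cells, which both comparisons share. In BMP4, 1 h gave 0 members called higher (1.18% of all genes tested), 6 h gave 2 (3.5%), 12 h gave 2 (3.59%) and 24 h gave 4 (4.92%). Then 36 h gave 4 (5.69%), 48 h gave 6 (8.12%), 72 h gave 8 (11.1%) and 96 h gave 8 (14.7%). TBX2 and TBX4 are among the 8 at 96 h and passed the filter on low counts only through those BMP4 libraries. Their calls at 96 h are therefore not independent of the filter. In Activin+BMP4, 1 h gave 0 (0.816%), 6 h gave 1 (3.97%), 12 h gave 0 (3.71%) and 24 h gave 3 (4.27%). Then 36 h gave 5 (6.24%), 48 h gave 6 (9.24%), 72 h gave 6 (12.8%) and 96 h gave 6 (16.6%). No member was called lower at any of these times. The 3 counts of 0 in edgeR's test were also 0 in DESeq2, and in each 0 members had an unadjusted p under 0.05. The first call in BMP4 came at 6 h for HAND1 and TBX3, at 24 h for ISL1 and NKX2-5, at 48 h for HAND2 and TBX20 and at 72 h for TBX2 and TBX4, the call of TBX2 being lost with DESeq2 (adjusted p = 0.192).

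The change from 48 to 96 h was tested within each condition. In BMP4, 7 of 8 rose (8.12% of all genes tested rose) and 0 fell, ISL1 being the one not called. TBX2 and TBX4 are among the 7 and passed the filter only through the BMP4 libraries at 96 h. In Activin+BMP4, 1 of 8 rose (TBX20; 10.5%) and 2 fell (HAND1 and NKX2-5; 6.3%). HAND1 rose by 1.71 ± 0.07 on the log2 scale in BMP4 and fell by 1.26 ± 0.10 in Activin+BMP4 (-1.17 without the 3 libraries that stood apart). NKX2-5 rose by 5.89 ± 0.23 in BMP4 and fell by 2.35 ± 0.30 in Activin+BMP4 (-2.06 without those 3). TBX20 rose in both, by 3.94 ± 0.20 in BMP4 and by 3.14 ± 0.21 in Activin+BMP4 (3.19 without those 3). TBX3 rose by 1.19 ± 0.08 in BMP4 and its change of -0.48 ± 0.08 in Activin+BMP4 was under 2-fold. That of ISL1 in Activin+BMP4 was -0.98 ± 0.22 (adjusted p = 0.000127) with no overlap. It was just under 2-fold and was called with only the groups compared (-1.01), without Activin+BMP4 48 h replicate 3 (-1.13) or without Activin+BMP4 96 h replicate 1 (-1.11).

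The difference between the 2 changes, tested as an interaction, was called for 5 of 8 members, all higher in BMP4 (7.31% of all genes tested). It was 2.97 ± 0.13 for HAND1 (adjusted p = 4.37e-23), 1.68 ± 0.12 for TBX3 (adjusted p = 4.55e-16) and 8.23 ± 0.40 for NKX2-5 (adjusted p = 9.46e-23). For the low-count genes it was 7.25 ± 0.78 for HAND2 (adjusted p = 2.75e-10) and 6.86 ± 1.91 for TBX4 (adjusted p = 0.00204). The TBX4 value rests on 3 counts in each condition at 48 h, and its call was lost without Activin+BMP4 48 h replicate 3 (adjusted p = 0.1). TBX4 passed the filter on low counts only through the BMP4 libraries at 96 h, so its p-value here is not independent of the filter. Without the 3 libraries that stood apart the value was 2.88 for HAND1, 1.64 for TBX3, 7.95 for NKX2-5, 6.99 for HAND2 and 7.20 for TBX4. For TBX20 it was 0.80 ± 0.37 (adjusted p = 0.0688) and for ISL1 0.85 ± 0.23 (adjusted p = 0.00198, under 2-fold). TBX2, with 0 counts in BMP4 at 48 h, was not called (adjusted p = 0.0692).

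**Figure D4:**
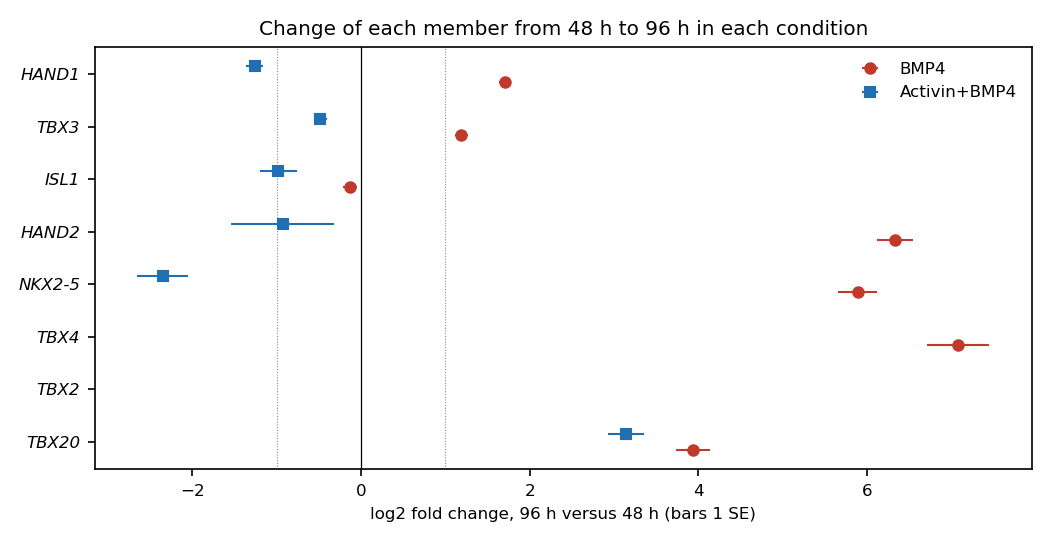
Log2 fold change from 48 to 96 h in BMP4 (red circles) and in Activin+BMP4 (blue squares) with bars of 1 SE and dotted lines at 2-fold; values with under 10 counts or with 0 counts at 48 h (TBX2 in both conditions and TBX4 in Activin+BMP4) are left out. HAND1 and NKX2-5 lie on opposite sides of 0, TBX20 lies above 3 in both, and ISL1 lies near 0 in BMP4.

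Per kb of annotated exon, the scale on which levels of different genes can be compared, the order of levels in BMP4 at 96 h was HAND1 (331 ± 28.2 CPM per kb), TBX3 (37.8 ± 2.29), ISL1 (10.0 ± 1.09), NKX2-5 (9.29 ± 1.84), HAND2 (7.27 ± 0.531), TBX20 (5.18 ± 0.441), TBX4 (1.54 ± 0.403) and TBX2 (0.642 ± 0.122). The ranges of mean ± SD overlap for ISL1 with NKX2-5 and for NKX2-5 with HAND2, so their order is not resolved. In Activin+BMP4 at 96 h TBX3 was at 5.93 ± 0.736, HAND1 at 4.33 ± 0.916 and TBX20 at 3.23 ± 0.612. The ranges of mean ± SD overlap for TBX3 with HAND1 and for HAND1 with TBX20, so this order is not resolved either. ISL1 (0.306 ± 0.0490) and NKX2-5 (0.250 ± 0.134), which do not differ beyond their spread, and HAND2 (0.0458 ± 0.0324) followed. TBX4 and TBX2 were at 4 counts each.

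Across the 17 group means, the highest correlations of log2(CPM + 0.5) joined HAND1 with ISL1 and TBX3, TBX2 with TBX4, and HAND2 with TBX2, TBX4 and NKX2-5. Pearson's r was 0.95 for HAND1 with ISL1 and with TBX3. It was 0.99 for TBX2 with TBX4, 0.97 for HAND2 with TBX2, 0.95 for HAND2 with TBX4 and 0.93 for HAND2 with NKX2-5. The value was lower for ISL1 with TBX3 (0.86) and for NKX2-5 with TBX2 (0.84) and TBX4 (0.82). HAND1 with NKX2-5 was close to these at 0.80, so the members did not split into clear sets. The lowest of the 28 values was 0.47, for TBX3 with TBX4. These describe 17 points that share a time course and 1 untreated group. TBX2 and TBX4 were at 0 to 5 counts over every group but BMP4 at 72 and 96 h. Values of r with these genes therefore rest mainly on those groups.

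The genes most like each member on that measure, among those reaching 5 CPM, were mostly at their highest in BMP4 at 96 h. For HAND1 they were SP6 (r = 0.9836), FRMD4B, UBE2J1 and CITED2. For HAND2 they were HOXB8 (r = 0.9919), PRDM6, RAX and ENDOD1, and for NKX2-5 FOXF1 (r = 0.9854), GRAP2, RCSD1 and RASGRP3. For ISL1 they were DLX1 (r = 0.9703), RNF43, UBE2J1 and TCIM. TBX2 and TBX4 shared RGS13, NNMT and RGS1, with TBX4 the other gene of TBX2's set and PRRX1 that of TBX4's. For TBX3 they were ARHGAP29 (r = 0.9891), ENPEP, TBC1D1 and ANKRD1, and for TBX20 they included ARSB (r = 0.9848), ZCCHC24 and TMBIM1. TMBIM1 was highest in Activin+BMP4 at 96 h. Of the 32 genes that the measure picked, 4 for each member, 17 were also named with a pseudocount of 0.1 and 3 with Spearman's rho. With Spearman's rho 1 was kept for HAND1, 2 for TBX3 and 0 for each other member.

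The partners of the members were read at 96 h from lists of related genes, which were also chosen with earlier results of these data known. Of all genes tested at 96 h, 7.7% were higher in BMP4 and 8.1% lower. These shares stand beside the counts of every list and marker set below. Of the bHLH list, 7 of 8 genes were tested, and 4 were higher in BMP4 and 0 lower (median log2 difference 1.06, against 0.01 over all genes tested). TCF4, an E-protein partner, was 235 ± 10.2 against 113 ± 1.38 CPM (log2 1.06 ± 0.04, adjusted p = 3.29e-27). TCF21, a factor of the epicardium and visceral mesoderm, was 3.41 ± 0.557 against 0.0460 ± 0.0533 CPM (log2 6.05 ± 0.39), and TWIST1 was 2.36 ± 0.482 against 0.843 ± 0.0435 (log2 1.48 ± 0.23). PHOX2A was also higher, by 2.53 ± 0.29.

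The other T-box genes were split. Of 13 listed, 8 were tested, 2 were higher in BMP4 and 3 lower (median -0.87). TBXT, the brachyury gene of the primitive streak, was 45.6 ± 3.10 against 10.4 ± 2.89 CPM (log2 2.13 ± 0.11, adjusted p = 1.01e-21), and TBX6, of paraxial mesoderm, was 20.6 ± 1.28 against 3.87 ± 1.60 (log2 2.41 ± 0.15). EOMES, which is needed for endoderm, was lower, 59.3 ± 7.84 against 342 ± 53.9 CPM (log2 -2.53 ± 0.09, adjusted p = 7.15e-26), as were TBR1 (-3.68 ± 0.25) and TBX22 (-1.57 ± 0.35). TBX5, the cardiac and forelimb T-box gene that neighbours TBX3 at 261.8 kb, did not pass the filter, and its group means were at most 0.309 CPM in all 17 groups.

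Of 13 LIM homeobox genes and cofactors, 12 were tested, 4 were higher in BMP4 and 3 lower (median -0.03). LHX5 was 25.2 ± 4.30 against 0.256 ± 0.170 CPM (log2 6.59 ± 0.54, adjusted p = 5.47e-14), and LHX8 (3.25 ± 0.37), LHX2 (1.53 ± 0.24) and LMX1A (1.21 ± 0.31) were higher on the same scale. LHX1, known from the node and anterior endoderm, was lower, 38.7 ± 9.26 against 101 ± 19.4 CPM (log2 -1.39 ± 0.10), as were LHX9 (-3.62 ± 0.46) and LMX1B (-2.50 ± 0.19). Of 6 other NK2 genes 3 passed the filter, and the counts of the 2 called at 96 h were nearly all in BMP4. NKX2-6 had 98 counts against 1 (95% interval of the ratio 17.4 to 3970) and NKX2-3 had 63 against 1 (11.1 to 2570). With 1 count each in Activin+BMP4, neither could pass the filter through that group, so these calls are not independent of the filter.

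Of 26 cardiac and lateral plate partner genes 24 were tested, 13 were higher in BMP4 at 96 h and 5 lower (median 1.89). FOXF1, of the splanchnic and extraembryonic mesoderm, was 30.4 ± 1.71 against 0.346 ± 0.188 CPM (log2 6.42 ± 0.17, adjusted p = 3.1e-36). PRRX1, a gene of limb and craniofacial mesenchyme, had 2349 counts against 1 (95% interval of the ratio 428 to 94200). HOXB6 was 44.4 ± 5.48 against 0.140 ± 0.0917 CPM (log2 8.26 ± 0.19) and SNAI2, of epithelial-mesenchymal transition, 76.0 ± 6.44 against 0.793 ± 0.102 (log2 6.57 ± 0.12). The lower genes included GATA4, GATA6, BMP2 and SMARCD3, which lay outside the rule for named genes and were named after their values were seen. GATA4 was 51 ± 4.33 against 188 ± 23.8 CPM (log2 -1.89 ± 0.09) and GATA6 62.3 ± 3.01 against 256 ± 37.9 (log2 -2.04 ± 0.09).

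BMP target genes were higher with the members: of 13 tested, 10 were higher in BMP4 and 1 lower (median 2.20). MSX1 was 104 ± 8.08 against 0.361 ± 0.0359 CPM (log2 8.15 ± 0.13), DLX5 10.2 ± 0.517 against 0.215 ± 0.135 (log2 5.58 ± 0.19) and NOG, a secreted BMP antagonist, 38.7 ± 5.22 against 3.81 ± 2.11 (log2 3.34 ± 0.17).

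Amnion markers were higher in BMP4 at 96 h, as 7 of the members were, and definitive endoderm markers were lower. All 5 amnion markers (TFAP2A, GABRP, VTCN1, WNT6 and IGFBP3) were higher in BMP4, with a summed level of 1360 to 1540 CPM over its 3 libraries against 9.26 to 11.7. Of the wider amnion list, 11 of 14 were higher and 0 lower (median 5.46), and TFAP2B, with 0 counts in Activin+BMP4, was at least 88.0-fold higher. All 5 definitive endoderm markers (SOX17, FOXA2, CXCR4, HHEX and GATA6) were lower in BMP4, summing to 81.2 to 89.4 CPM against 549 to 740. Pluripotency markers summed to 2850 to 3020 CPM against 3820 to 4190, with 2 of 6 lower (NANOG and TDGF1). The part of these cell types in the members' levels was not tested.

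For the heart, 3 of 4 tested cardiomyocyte markers were higher in BMP4 at 96 h, and the sum of the 5 markers was 1570 to 2220 CPM against 27.7 to 51. ACTC1 made up most of it, at 1960 ± 349 CPM against 18.7 ± 3.54. Of the others, TNNT2 was 3.4 ± 0.402 against 1.26 ± 0.547 CPM, MYH6 2.08 ± 0.294 against 0.137 ± 0.144, and MYL7 10.9 ± 2.05 against 20.9 ± 8.99. NPPA was at 6 counts in BMP4 and did not pass the filter. Of 10 tested sarcomere and natriuretic peptide genes 4 were higher (ACTC1, MYH6, MYL4 and TNNT2) and TNNC1 was lower (median 0.84). MYH7 was at 5 counts in BMP4.

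Motor neuron and neural crest markers, the other settings of ISL1 and HAND2, were mostly lower or near 0 in BMP4. The 4 motor neuron markers summed to 0.5 to 0.819 CPM in BMP4 and 4.80 to 7.37 in Activin+BMP4, CHAT was at 0 counts in both and SLC18A3 was at 31 counts in BMP4 and 0 in Activin+BMP4. MNX1, the only one tested, was lower in BMP4 (log2 -4.20 ± 0.23). The 3 neural crest markers summed to 3.57 to 5.31 CPM against 12.4 to 17.5, with both tested genes (SOX10 and FOXD3) lower in BMP4. The same sum was 22.1 to 25.4 CPM in untreated cells, above both conditions, so it is not read as a measure of neural crest cells. Of 6 trophoblast markers 2 were tested, 0 were higher and ERVW-1 was lower, with sums of 1.92 to 2.70 CPM against 3.05 to 3.86.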

How the data were processed

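RNA-seq of 51 libraries of H1 cells in 17 groups was used. The authors deposited 1 table of whole-number counts for 58051 gene rows, and 98.1% of rows matched a symbol. The submitters' processing notes name cutadapt 1.5, STAR 2.5.2a, RSEM 1.3.0 and GRCh38, with no roles. Whether the counts are rounded RSEM estimates and whether strand was used is not given in the sources used here. Columns of no sample numbered 0.

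Counts were tested with edgeR 4.0.16 in R 4.3.3: filterByExpr over the 17 groups (minimum count 10, total 15), TMM scaling (factors 0.966 to 1.03), and glmQLFit and glmQLFTest on all 51 libraries, with 27 comparisons each adjusted over 19603 genes. The filter kept 99.95% of counts. The script was tested on simulated data. Ratios and floors (3 counts over a group) cover counting error only. Alternatives were DESeq2 1.42.0, RLE factors, no scaling factors, no filter, a stricter filter, a fit to only the groups compared, a replicate block and leaving out each library. Leaving out together the 3 libraries that stand apart was added after the data were seen. The members and lists were chosen with earlier results of these data known. Genes named were the members, the 4 genes most like each, up to 4 called genes per list by size of the 96 h difference, and any called T-box or LIM gene. Values of some listed genes are not reported here.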

Additional observations from a re-analysis of the deposited data

Results flagged for a closer look

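For 5 of the 8 members the change from 48 to 96 h differed between the conditions in a test of the difference itself (edgeR's quasi-likelihood test of the interaction, n = 3 libraries per group). All 5 were higher in BMP4, against 7.31% of all genes tested. The value is the log2 change in BMP4 minus that in Activin+BMP4. It was 2.97 for HAND1, 7.25 for HAND2, 1.68 for TBX3, 6.86 for TBX4 and 8.23 for NKX2-5. The value for TBX4 rests on 3 counts in each condition at 48 h, and its call was lost without Activin+BMP4 48 h replicate 3. TBX4 also passed the filter on low counts only through the BMP4 libraries at 96 h, so its call is not independent of the filter.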

How the results depend on the processing

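Of 27 counts of members called, 1 moved by over 1.5 times. The 1 member called in Activin+BMP4 at 6 h against untreated (HAND1) became 0 with no filter and 0 with only the groups compared, where HAND1 did not pass the filter and was not tested, and ranged from 0 to 1 when single libraries were left out. Among single members, 850 values under another setting fell on the same side of the threshold, 4 were newly called and 5 were lost; when 1 library was left out, 660 fell on the same side, 10 were newly called and 14 were lost. None reversed. With only the groups compared, 13 values had no test because the gene did not pass the filter there. The calls lost were those of HAND1 in Activin+BMP4 at 6 h, NKX2-5 in BMP4 at 24 and 36 h, TBX2 (DESeq2 only), TBX20 at 72 h and the interaction of TBX4; the cause was not tested. Of the 32 genes named as most like the members, 3 were shared with Spearman's rho and 17 with a pseudocount of 0.1. Same-numbered libraries of the 2 conditions did not deviate together (correlations from -0.13 to 0.11, 1 of 24 over 0.1), so the numbers were not used as pairs. With a replicate block 7 members were called at 96 h, and the block changed no count of members by over 1.5 times. Another scaling moved libraries by at most 0.05 on the log2 scale. Values under about 0.042 CPM are 3 counts or fewer over a group, and a difference there was not detectable at this depth.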
